A study of Glycine max with 36 samples.

Results

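The genes described here are the strong daily rhythms of soybean unifoliolate leaves that were highest at ZT16, the hour at which darkness had begun in the cycles the plants grew up in. They were chosen by the mean of the 3 replicates at each of the 12 time points. A gene was kept when its mean over the 36 libraries was at least 5 FPKM, when its highest time point was ZT16 within ZT0 to ZT20 and ZT40 within ZT24 to ZT44, and when the highest mean was at least 8 times the lowest mean plus 0.1 FPKM on each day. Of 47011 gene identifiers in the deposited table, 33 met these conditions. FPKM is the number of sequenced fragments divided by gene length and by the total of mapped fragments, so a level is a share of its library. ZT is zeitgeber time, the hours since the lights came on, or would have come on.

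Seedlings of the cultivar Williams 82 had been raised in soil at 28 °C under 16 h of light and 8 h of darkness for 9 days and were then switched to constant conditions. From an age of 11 days, 12 time points were taken at steps of 4 h from ZT0 to ZT44, with 3 biological replicates each and the leaves of 3 seedlings pooled in each replicate. Unifoliolate leaves are the simple leaves that a bean seedling opens before its compound ones. All groups shared the cultivar, the tissue and the constant conditions and differed in the hour of sampling, so the second day also meant older plants and a longer stay in constant conditions, and these cannot be told apart.

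The circadian clock of plants is a loop of transcription factors that repress each other at different times of day. Factors of the dawn hold down evening genes, pseudo-response regulators follow each other from morning to evening, and a protein complex of the evening represses targets early in the night. The clock goes on running in constant conditions, where a transcript can still peak at the former onset of darkness. In leaves this hour falls at the change from building up starch and sugar to spending them. Of the identifiers, 0 of 47011 matched the table of gene names used here, so no member is given a name or a role, and levels of known leaf or other tissue markers were not checked.

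On the deposited scale, highest levels at ZT16 and ZT40 were common, and deep ones were not. Of 15627 genes that averaged 5 FPKM or more, 3435 (22%) were highest at ZT16 and at ZT40, and the median of these had a highest-to-lowest ratio of only 1.84 on the second and 1.96 on the first day. The 33 members were 0.961% of them. The level of the median gene also moved with the hour, as given below, and the 22% was not counted again with that move removed. Without the limit on the mean level, 73 identifiers passed. The same conditions with other peak hours gave 64 genes for ZT0, 31 for ZT4, 71 for ZT8, 140 for ZT12 and 35 for ZT20. At the edge of the limit, GLYMA16G04130 was inside with a smaller daily ratio of 8.11, GLYMA07G36590 with 8.52 and GLYMA14G05560 with 8.97, while GLYMA02G36810 at 7.996, GLYMA09G37350 at 7.78 and GLYMA05G10264 at 7.73 were outside.

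**Figure D1:**
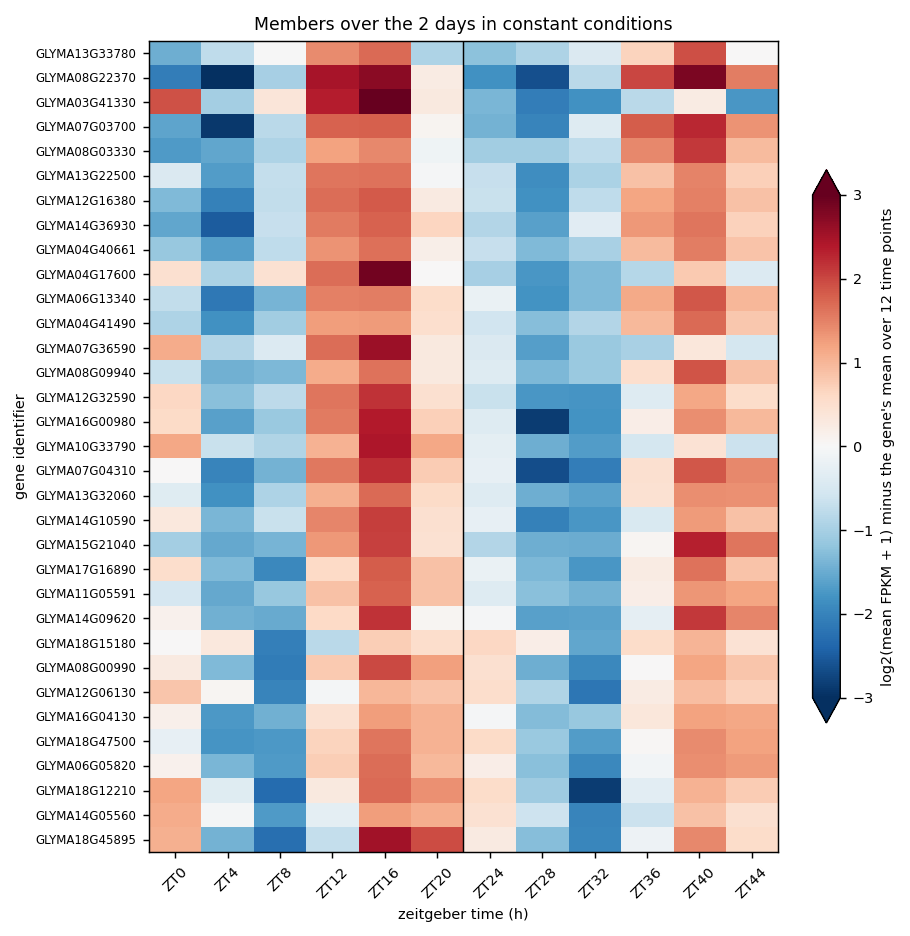
Each row is 1 of the 33 members and each column 1 of the 12 time points (h). Colour gives log2(mean FPKM + 1) minus the gene's own mean over the time points, and rows run from members with more transcript at ZT12 and ZT36 (top) to members with more at ZT20 and ZT44 (bottom). The vertical line parts the days.

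The libraries were alike in depth. Low values lay on steps of single reads, and 95.8% of values at 366 rarely read loci were within 6% of 1 read, which gave relative depths from 0.796 to 1.15 times the median library. Absolute depth is unknown, and no counting interval is given. Pearson's r between replicates, across genes, ran from 0.947 to 0.994. ZT40 replicate 2 and ZT44 replicates 2 and 3 stood apart on the fourth principal component, which held 3.33% of the variance, with scores of 34 to 39.3 against -24.8 to 17.5 in the others. Tests that use ZT40 or ZT44 were therefore repeated without these 3 libraries, and for those that use ZT44 only medians are given. The gene of median level moved with the hour as well, with 3.00 on the log2(FPKM + 1) scale at ZT16 and 2.55 at ZT4. The main counts of called members and the number of members are therefore also given after rescaling. In whole leaves, fewer cells of a type and less RNA per cell cannot be told apart.

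The members spanned a wide range of abundance. Their mean over all libraries ran from 5.03 to 378 FPKM with a median of 14.4, and 21 lay above 10, 4 above 50 and 2 above 100 FPKM. GLYMA07G04310 was the most abundant. At ZT40 its libraries held 569, 682 and 1209 FPKM, and at ZT16 they held 964, 998 and 1221 FPKM. Its lowest means were 35.0 ± 24.0 FPKM at ZT28 and 56.7 ± 13.3 FPKM at ZT4 (SD, n = 3). Each library at a peak hour was thus well above each library at the low hours, while the spread at ZT40 was wide. GLYMA16G00980, the next in abundance, held 259, 285 and 574 FPKM at ZT40 and 626, 655 and 904 FPKM at ZT16. In this gene the ZT40 libraries were all below the ZT16 libraries, and replicate 3 was the highest at both hours.

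Between highest and lowest hour the members changed by a median of 12.4 times on the second day and 16.2 times on the first. The ratio was larger on the second day in 8 members and larger on the first in 25. It reached 169 in GLYMA18G45895 on the first day, where ZT16 held 32.3, 33.0 and 19.5 FPKM and ZT8 only 0.149, 0.0539 and 0 FPKM. A ZT8 library was thus at 0, and the ratio rests in good part on the 0.1 FPKM added to the lowest mean. The largest ratio of the second day was that of GLYMA08G22370, at 61.7, and it was 148 on the first day. Its mean was 134 ± 24.1 FPKM at ZT40 against 2.07 ± 0.68 FPKM at ZT28, and on the first day 123.3 ± 2.41 FPKM at ZT16 against 0.735 ± 0.251 FPKM at ZT4 (SD, n = 3 each). For comparison, the 140 genes highest at ZT12 had a median ratio of 19.4 on the second and 34.1 on the first day, and the 35 highest at ZT20 had 11.2 on the second and 18.7 on the first. These ratios took part in choosing all 3 sets and were not tested against each other.

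The low hours lay in the first 8 h after the former hour of dawn. On the second day 18 members were lowest at ZT28, 14 at ZT32 and 1 at ZT24. On the first day 21 were lowest at ZT4, 10 at ZT8 and 2 at ZT0. The hour of the trough was the same on both days in 26 of 33. At ZT4 the median member stood at 6.26% of its ZT16 level, at ZT8 at 9.40%, at ZT12 at 57.1%, at ZT20 at 37.2%, and at ZT24, the start of the next day, at 23.3% of the level it was to have at ZT40.

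Taken by itself, each replicate course showed the peak in most members. Within the second day ZT40 was the highest hour for 27, 21 and 31 of the 33 in replicates 1, 2 and 3, the lowest count being that of replicate 2. Within the first day ZT16 was the highest for 30, 31 and 28. All 3 courses had it on both days in 11 members. Every ZT40 library lay above every other library of the second day in 13 members (4.68% of all 27449 genes averaging 1 FPKM or more), and every ZT16 library above every other of the first day in 20 (8.54% of all). Against single neighbouring hours, every ZT40 library was above every ZT44 library in 18 members (25.2% of all) and above every ZT36 library in 23 (20.3% of all). Likewise every ZT16 library was above every ZT20 library in 29 members (54.4% of all) and above every ZT12 library in 24 (22.2% of all). These values chose the members and are a description.

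**Figure D2:**
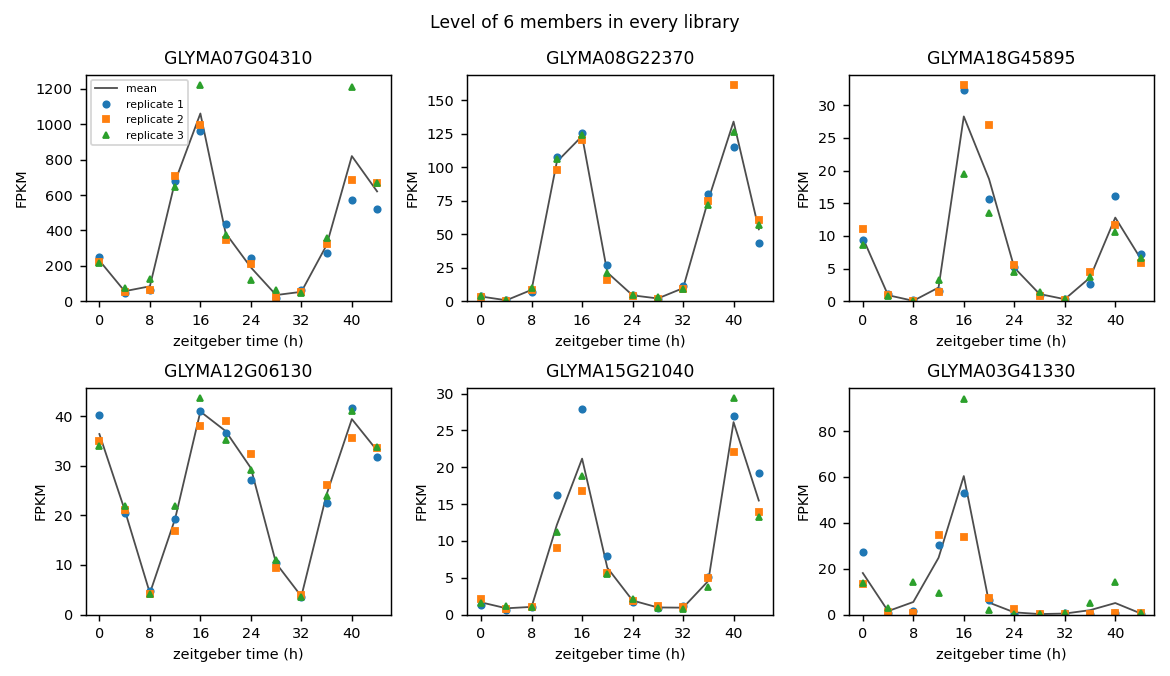
FPKM (vertical, from 0) against zeitgeber time in h (horizontal) for 6 members, with 1 point per library and a line through the means of 3 replicates. GLYMA08G22370 rose by ZT12 and fell sharply by ZT20, whereas GLYMA12G06130 stayed close to its peak from ZT16 to ZT20; replicate 3 of GLYMA07G04310 stood at 1209 FPKM at ZT40, above 569 and 682 FPKM in the other libraries.

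The members differed among themselves in the hours on either side of the peak. The rule asked that ZT12 and ZT20 be below ZT16, and ZT36 and ZT44 below ZT40, and did not compare the hours before and after a peak with each other. Members were chosen for large ratios within each day, so their shares against all genes are a description. With the days averaged, 12 of the 33 (36.4%) were higher after the peak, at ZT20 and ZT44, than before it, at ZT12 and ZT36, and 11 (33.3%) were lower. Of all 27449 genes tested, 19.9% were higher and 49% lower. The median difference was -0.01 on the log2 scale over the members and -0.19 over all genes. Since the median gene itself fell, the counts were repeated after each library had been divided by its median ratio to the other libraries. On that scale 14 members were higher and 10 lower, against 29.5% and 30.9% of all genes, so the count of lower members was near the background. Of the 3402 other genes of at least 5 FPKM that were highest at ZT16 and ZT40, 9.29% were higher and 37.7% lower as deposited, and 30.5% and 10.1% after rescaling. These are tests of limma, a linear model with moderated variances, on log2(FPKM + 1) with Benjamini-Hochberg adjustment over all genes at 0.05. Without the 3 libraries that stood apart ZT44 kept only replicate 1, so no count is given. The median difference was then -0.09 over the members and -0.16 over all genes.

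GLYMA18G45895 leaned most to the later side. It held 7.23, 5.86 and 6.57 FPKM at ZT44 and 2.64, 4.51 and 3.70 FPKM at ZT36, and on the day before 15.7, 26.99 and 13.4 FPKM at ZT20 and 1.55, 1.42 and 3.31 FPKM at ZT12. The libraries after the peak were all above those before it on both days, by 1.69 ± 0.15 on the log2 scale (SE, adjusted p = 7.41e-11, limma). GLYMA14G05560 followed with a difference of 1.29 ± 0.15 (SE, adjusted p = 8.06e-09, limma). It held 37.5, 38.9 and 32.6 FPKM at ZT20, close to the 37.2, 42.1 and 42.1 FPKM at ZT16, and 12.7, 13.2 and 13.3 FPKM at ZT12. Its ZT20 and ZT16 libraries overlapped and its ZT12 libraries lay far below both. On the second day it held 21.9, 23.6 and 24.0 FPKM at ZT44 and 7.40, 7.65 and 15.4 FPKM at ZT36, again apart.

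At the other end, GLYMA13G33780 held 0.99, 1.22 and 1.69 FPKM at ZT20 and 9.25, 9.53 and 13.5 FPKM at ZT12, a difference over both days of -1.51 ± 0.19 (SE, adjusted p = 4.25e-08, limma). GLYMA08G22370 held 26.9, 16.2 and 21.2 FPKM at ZT20 and 108, 98.2 and 106 FPKM at ZT12, with -1.38 ± 0.12 over both days (SE, adjusted p = 1.38e-11, limma). In both genes the libraries after and before the peak were well apart on the first day. On the second day the first gene held 2.69, 4.15 and 3.39 FPKM at ZT44 and 6.07, 5.64 and 6.30 FPKM at ZT36. The other held 43.6, 60.8 and 56.6 FPKM at ZT44 and 80.1, 75.1 and 71.9 FPKM at ZT36. Their libraries were apart there too, by smaller steps. GLYMA13G33780 was near the limits of the rule, with a mean of 5.03 FPKM. At ZT16 it held 8.39, 9.93 and 21.3 FPKM, which overlapped ZT12, and replicate 1 was highest at ZT12 on the first day. At ZT40 it held 9.83, 9.865 and 27.4 FPKM. With 1 library left out it met the rule in 26 of 36 settings.

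The later-leaning and the earlier-leaning members also differed in where their troughs lay. Among the 12 later-leaning ones, 11 were lowest at ZT32 and 1 at ZT28 on the second day, and 8 at ZT8 and 4 at ZT4 on the first. Among the 11 earlier-leaning ones, 10 were lowest at ZT28 and 1 at ZT24 on the second day, and 9 at ZT4 and 2 at ZT0 on the first. At ZT0 the later-leaning members stood at a median of 36.6% of their ZT16 level, with 90.4% in the highest, and the earlier-leaning ones at 9.46%. At ZT8 the medians were 6.94% and 15.1%. The later-leaning members were thus still above their lowest level at the former hour of dawn, and the earlier-leaning ones were nearer to theirs at dawn and above it again by ZT8. These groups were formed from the same courses, so their troughs are a description with no test.

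Some members followed nearly the same course. Over the 528 pairs, Pearson's r of log2(mean FPKM + 1) over the 12 time points had a median of 0.802 and ran from 0.027 to 0.995. The closest pair was GLYMA08G22370 and GLYMA07G03700 (r = 0.995), followed by GLYMA12G16380 and GLYMA04G40661 (r = 0.992). The least alike were GLYMA03G41330 and GLYMA18G15180. All members share the rule and the libraries, and a high r between them follows in part from that.

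The second-day peak was lower than the first in part of the members. At ZT40, 11 of the 33 (33.3%) were lower than at ZT16 and 3 (9.09%) were higher, against 11.8% and 14.9% of all genes tested. The median difference was -0.32 on the log2 scale over the members and 0.01 over all genes. After rescaling by the median ratio 12 members were lower and 1 was higher, against 13.3% and 12.5% of all genes. Of the 3402 other genes averaging 5 FPKM or more that were highest at the same hours, 17.2% were lower and 6.58% higher. The rule set each day's peak only against the other hours of that day, so it fixed no sign here. It did choose members for large ratios at these peaks, so their shares against all genes are a description. Without the 3 libraries that stood apart, 11 members were lower and 1 was higher, against 9.73% and 17.8% of all genes.

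The deepest falls took the transcript to a small part of its first-day level. GLYMA04G17600 held 2.46, 1.61 and 23.0 FPKM at ZT40 and 40.2, 30.9 and 57.1 FPKM at ZT16. The groups did not overlap, with replicate 3 the highest in both, and the difference was -2.82 ± 0.49 (SE, adjusted p = 8.02e-05, limma). Within the second day this gene was highest at ZT44 in replicates 1 and 2, and at ZT40 only in replicate 3. GLYMA03G41330 fell by 4.11 ± 0.75 on the log2 scale (SE, adjusted p = 0.000148, limma), with 0.535, 0.522 and 14 FPKM at ZT40 and 53.1, 33.9 and 94.2 FPKM at ZT16. Its mean at ZT40 was 0.0831 times that at ZT16, and 0.00875 times without ZT40 replicate 3. Its peak at ZT40 rested on replicate 3. In replicate 2 the highest hour of the second day was ZT24, with 2.35 FPKM, and in replicate 1 the 0.535 FPKM at ZT40 was the highest of that day. Of the members, 6 had a ZT40 mean below 0.5 times the ZT16 mean.

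Rises were small. GLYMA08G03330 held 49.7, 56.0 and 36.2 FPKM at ZT40 and 29.4, 33.4 and 24.98 FPKM at ZT16, with each ZT40 library above each ZT16 library. The difference was 0.66 ± 0.15 (SE, adjusted p = 0.0012, limma). GLYMA07G03700 held 72.1, 112 and 99.6 FPKM at ZT40 and 73.4, 65.0 and 64.4 FPKM at ZT16, which overlapped, and its difference of 0.46 ± 0.17 (SE, adjusted p = 0.0451, limma) did not pass after rescaling by the median ratio (0.42, adjusted p = 0.0794).

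**Figure D3:**
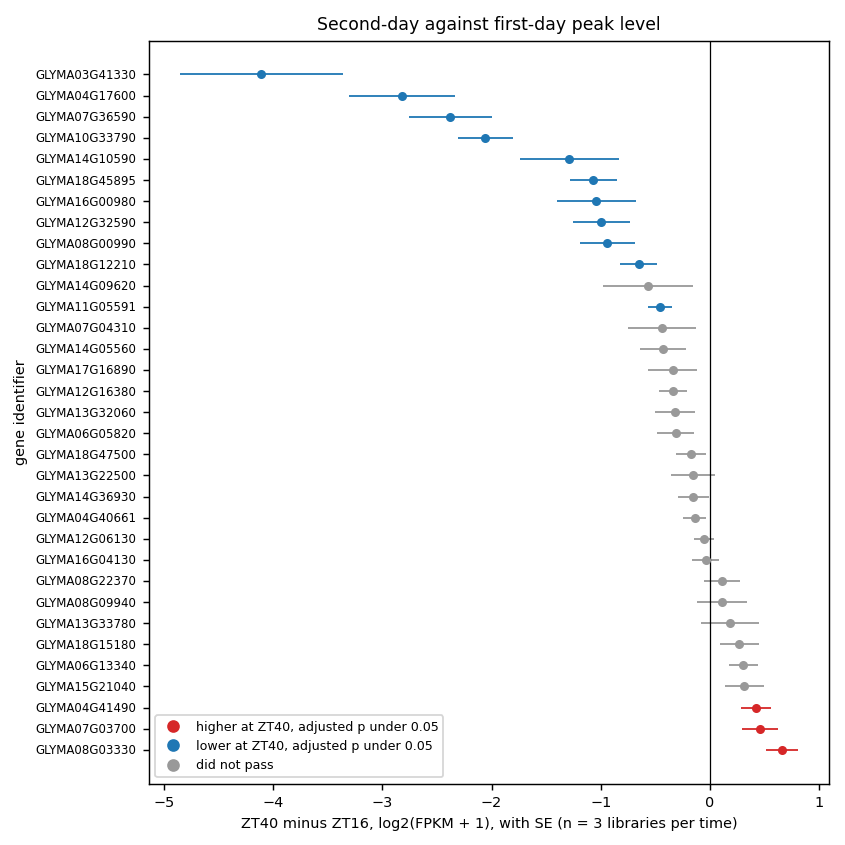
Difference between ZT40 and ZT16 in log2(FPKM + 1) for each member, with its standard error (n = 3 libraries per time). The 11 members in blue were lower at ZT40 and the 3 in red higher at an adjusted p under 0.05; differences run from -4.11 to 0.66.

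The libraries at ZT40 differed among themselves more than those at other hours in these genes. The median coefficient of variation over the members was 13.2% at ZT16, 21.1% at ZT28, 23.1% at ZT40 and 10.8% at ZT44, and ZT40 had the highest of the 12. ZT40 replicate 3 was over 1.5 times the next replicate in 12 of the 33 members (36.4%, against 5.9% of all genes tested), by 1.66 to 26.2 times. At the same hour replicate 1 did so in 0 members (0.987% of all genes) and replicate 2 in 0 (2.36% of all). GLYMA14G09620 shows it most plainly among the abundant ones, with 30.7, 42.8 and 233 FPKM at ZT40. The first 2 libraries were there below each ZT16 library (89.1, 78.3 and 148 FPKM), and the last was above them all. The rule used the mean at ZT40, which a high library raises, so a gene could enter through that library. The spread at ZT40 and the shares against all genes are therefore a description of the chosen members.

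Of these 12 members, 10 were also highest in replicate 3 at ZT16, by 1.06 to 2.15 times the next, and 6 were over 1.5 times the next in replicate 3 at ZT36. Replicate 3 also exceeded the next by 1.5 times at ZT28 in 10 members (30.3%, against 3.53% of all genes), at ZT36 in 8 (24.2%, against 2.95%) and at ZT16 in 3 (9.09%, against 1.45%). The means at these hours took part in the rule as well, so these shares too are a description. Without ZT40 replicate 3 the same conditions kept 21 of the 33 members and added none, and 10 of the 12 that left were among the members high in that library. In 6 of the 12 that left, ZT44 became the highest hour of the second day. Without this library 14 members were lower and 3 higher at ZT40 than at ZT16, against 15.2% and 13.6% of all genes.

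**Figure D4:**
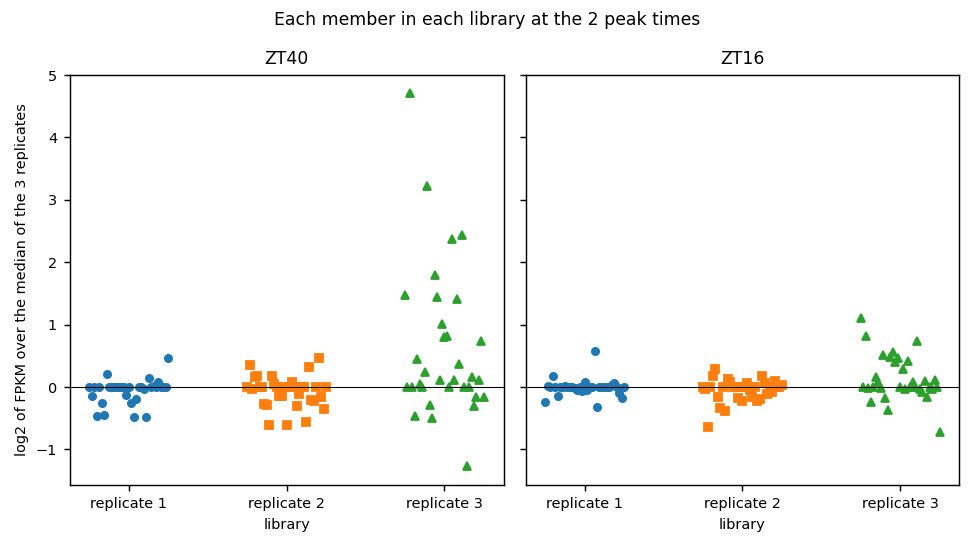
Log2 of the FPKM in each library over the median of the 3 replicates, for each member, at ZT40 (left) and ZT16 (right). At ZT40, 12 members stood over 1.5 times above the next library in replicate 3, and none did so in replicates 1 or 2.

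Few members passed the test for the step up to the peak from 12 h before it. The step from ZT28 to ZT40 was set against the step from ZT4 to ZT16. It is not the depth of the trough in the 14 members lowest at ZT32 on the second day or the 10 lowest at ZT8 on the first. The members were chosen for large ratios within each day, which these steps share, so their share against all genes is a description; the rule did not fix on which day the step was larger. It was smaller on the second day in 5 members (15.2%) and larger in 1 (3.03%), against 2.18% and 1.69% of all genes tested, with a median of -0.43 on the log2 scale over the members and -0.04 over all genes. After rescaling it was smaller in 5 and larger in 1, against 1.73% and 1.69% of all genes, but of the 6 called members only 5 were still called, and another was added. At an unadjusted p under 0.05 there were 14 members (42.4%), against 17.8% of all genes. GLYMA12G06130 had the larger step on the second day, by 0.91 ± 0.13 (SE, adjusted p = 7.17e-05, limma). It held 41.6, 35.6 and 40.9 FPKM at ZT40 and 41.0, 38.0 and 43.7 FPKM at ZT16, which overlapped, and 10.5, 9.40 and 11.1 FPKM at ZT28 and 21.1 ± 0.645 FPKM (SD, n = 3) at ZT4. Its peak was thus level between the days and its level 12 h before the peak lower on the second. This gene was lowest at ZT32 and ZT8, and its ratio of highest to lowest hour was 10.5 on the second and 9.26 on the first day.

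Among the smaller steps, GLYMA10G33790 fell by 1.26 ± 0.36 (SE, adjusted p = 0.0419, limma), with 4.93, 3.24 and 8.57 FPKM at ZT40 and 27.2, 22.0 and 25.7 FPKM at ZT16, and 0.447, 0.644 and 1.17 FPKM at ZT28 and 1.27, 2.31 and 2.64 FPKM at ZT4. It was lower on the second day at both hours. The 1 FPKM added before the log2 therefore shrank its second-day step more than its first-day step. After rescaling it did not pass (adjusted p = 0.0602, limma). Over 46 alternatives the difference ran from -1.57 to -0.87, and in 15 of them it was not called. GLYMA18G45895 fell by 1.19 ± 0.31 (SE, adjusted p = 0.0236, limma), with 16.1, 11.7 and 10.5 FPKM at ZT40 against the values at ZT16 given above. The count of 5 rested on single libraries: it was 12 without ZT40 replicate 3 (4.88% of all genes), 2 without ZT28 replicate 3 (1.48% of all), and 3 without ZT4 replicate 1, ZT16 replicate 1 or ZT16 replicate 2 (1.29%, 1.66% and 1.45% of all). It was 4 without the 3 libraries that stood apart (1.96% of all), where GLYMA10G33790 (adjusted p = 0.128, limma) and GLYMA18G45895 (adjusted p = 0.056, limma) did not pass.

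Most members differed between the days on the flanks of the peak. On the second day the median of ZT44 minus ZT36 over the members was 0.54 on the log2 scale, and on the first day the median of ZT20 minus ZT12 was -0.82. In 20 members ZT44 was above ZT36, and in 11 ZT20 was above ZT12. The difference was larger on the second day in 28 of 33 members. As a test between the days it passed in 22 members (66.7%) in this direction and in 3 (9.09%) in the other, against 17.8% and 5.69% of all genes tested. The median over all genes was 0.14. After rescaling by the median ratio, which removes that shift, 21 members were larger and 3 smaller on the second day, against 6.97% and 9.66% of all genes. By the means of the replicates none of the 4 hours is a peak hour, and each had to lie below the peak of its day. In GLYMA14G10590, GLYMA14G09620, GLYMA16G04130 and GLYMA04G17600, however, replicates 1 and 2 were highest at ZT44 within the second day. Members were also chosen for large ratios within each day, so their share against all genes is a description. The rule did not fix on which day the difference was larger.

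Among the 3402 other genes highest at the same hours, 33.2% passed with a larger and 0.47% with a smaller value on the second day as deposited, and 10.6% and 2.79% after rescaling. Of the 3 libraries that stood apart 2 are at ZT44, and without them ZT44 kept only replicate 1, so no count is given. The median change was then 0.98 on the log2 scale over the members and 0.20 over all genes. Without replicate 1 at all hours the count of 22 was 13 (5.53% of all genes), and without replicate 2 it was 10 (3.57% of all).

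The change was among the largest in GLYMA15G21040. It held 19.3, 13.99 and 13.2 FPKM at ZT44 and 5.09, 4.94 and 3.67 FPKM at ZT36, whereas on the first day it had held 7.91, 5.58 and 5.57 FPKM at ZT20 and 16.3, 9.02 and 11.2 FPKM at ZT12. After and before the peak did not overlap on either day, and the order was opposite, with a change of 2.38 ± 0.26 (SE, adjusted p = 1.46e-07, limma). GLYMA14G10590 moved by 2.38 ± 0.64 (SE, adjusted p = 0.00827, limma). It held 111, 117 and 132 FPKM at ZT44 and 31.1, 39.8 and 69.3 FPKM at ZT36, and on the first day 86.1, 112 and 73.6 FPKM at ZT20 and 187, 207 and 140 FPKM at ZT12. Its order of the flanks also turned, again with no overlap on either day. It did not pass without replicate 1 (adjusted p = 0.115, limma) or replicate 2 (adjusted p = 0.119, limma) at all hours. At ZT40 this gene held 58.45, 66.8 and 345 FPKM. Its ZT40 peak rested on replicate 3, and in replicates 1 and 2 the highest hour of the second day was ZT44.

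The 3 members that moved the other way were all later-leaning. GLYMA18G45895 changed by -1.93 ± 0.31 (SE, adjusted p = 5.86e-05, limma) from the levels given above, where the excess at ZT44 over ZT36 was smaller than that at ZT20 over ZT12. GLYMA18G15180 changed by -1.48 ± 0.25 (SE, adjusted p = 0.000155, limma). It held 9.22, 7.67 and 7.70 FPKM at ZT44 and 7.79, 10.5 and 8.67 FPKM at ZT36, and on the first day 9.83, 8.99 and 7.63 FPKM at ZT20 and 2.32, 2.04 and 4.34 FPKM at ZT12. The flanks overlapped on the second day and were apart on the first.

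The larger values on the second day were found in 9 of the 11 earlier-leaning members, in 9 of the 10 that leaned neither way and in 4 of the 12 later-leaning ones, a split that was not tested. The change was called with a larger value on the second day in 8 of the 12 members in which ZT40 replicate 3 stood high and in 14 of the 21 others. The median member thus stood at 59.9% of its ZT40 level at ZT44 and at 37.2% of its ZT16 level at ZT20, and before the peak at 40.5% of its ZT40 level at ZT36 and 57.1% of its ZT16 level at ZT12.

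**Figure D5:**
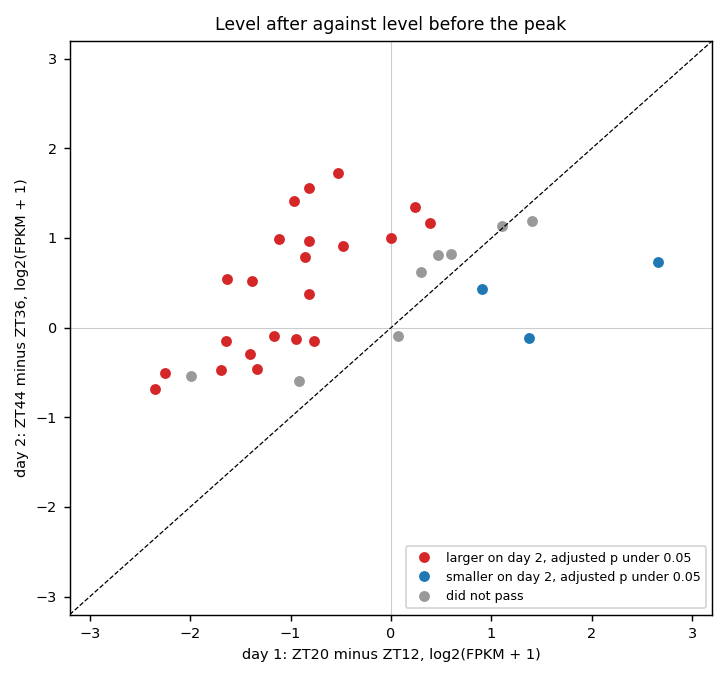
For each member, ZT44 minus ZT36 on the second day (vertical) against ZT20 minus ZT12 on the first (horizontal), both in log2(FPKM + 1). The dashed line marks equal values; 22 members in red lay above it and 3 in blue below it at an adjusted p under 0.05.

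Soybean identifiers of this form carry the number of the chromosome, and the 33 held 14 different numbers, none of them more than 4 times. The numbers 8, 14 and 18 had 4 members each (12.1%), against 7.52%, 3.60% and 4.86% of genes averaging 5 FPKM or more. Of the 66 identifiers next to a member in order among genes averaging 5 FPKM or more, 13 (19.7%) were highest at ZT16 and ZT40, close to the 22% of all such genes. Of these 66, 0 were members, where members make up 0.211% of such genes.

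Membership itself depended on the scale. After median-ratio rescaling 15 genes met the conditions, all of them among the 33. Of the 18 that left, 8 had another highest hour, 9 fell under the ratio of 8 and 1 under the mean of 5 FPKM. Of the members named above, GLYMA07G04310, GLYMA16G00980, GLYMA08G22370, GLYMA18G45895, GLYMA14G09620, GLYMA03G41330, GLYMA07G03700, GLYMA12G16380 and GLYMA15G21040 remained. GLYMA12G06130, GLYMA14G10590, GLYMA14G05560, GLYMA13G33780, GLYMA04G17600, GLYMA08G03330, GLYMA10G33790, GLYMA18G15180, GLYMA04G40661, GLYMA16G04130 and GLYMA07G36590 did not.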

How the data were processed

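RNA-seq libraries of soybean leaves at 12 time points, 3 replicates each, were used as the authors deposited them, in 1 table of FPKM values with 1 column per library (0 columns unmapped). Per the submitters' processing notes TopHat2 2.1.0 and HTSeq 0.6.0 were used, with no roles given; what computed the FPKM, and on which genome build, is not given in the sources used here. Since FPKM values are not counts, no count model was used. The members and gene lists were chosen with earlier results of these data known. Against the 59048 genes of a RefSeq table, 0 of the 47011 identifiers had a match, so the planned lists and tissue markers were not resolved, and no sequence is shown.

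The 27449 genes averaging 1 FPKM or more were fitted as log2(FPKM + 1), with the 12 time points as groups, in limma 3.58.1 under R 4.3.3, whose prior variance followed a trend with level. Fold changes on this scale understate those of low genes. A difference between the days can be overstated where a gene was lower on 1 of them, since the step of that day is understated more. Contrasts were ZT40 minus ZT16, (ZT40 minus ZT28) minus (ZT16 minus ZT4), the mean of ZT20 and ZT44 minus that of ZT12 and ZT36, and (ZT44 minus ZT36) minus (ZT20 minus ZT12), each at a Benjamini-Hochberg adjusted p under 0.05. The fits were tested on simulated data with known changes. Members to name were the 12 most abundant, the 12 with the largest smaller daily ratio, the 3 largest called differences in each direction of each contrast and the 3 nearest the ratio limit on each side; since identifiers have no names, at most 2 in each direction are printed. The closest and least alike pairs were named after their values were seen. Alternatives were other scalings, pseudocount, filter, replicate block, prior and libraries left out. Replicates are separate pools of seedlings.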

Additional observations from a re-analysis of the deposited data

Results flagged for a closer look

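Differences between the days, tested as interactions, are listed here. The step up to the peak from 12 h before it was called smaller on the second day in 5 members and larger in 1. It was smaller in 2.18% and larger in 1.69% of all genes tested. It was larger in GLYMA12G06130 (0.91, adjusted p = 7.17e-05, limma) and smaller in GLYMA10G33790 (-1.26, adjusted p = 0.0419, limma) and GLYMA18G45895 (-1.19, adjusted p = 0.0236, limma). Of 46 alternatives, GLYMA10G33790 was not called in 15, GLYMA18G45895 in 9 and GLYMA12G06130 in 0. The level after the peak relative to that before it was larger on the second day in 22 members and smaller in 3. Of all genes tested, 17.8% were larger and 5.69% smaller. The 2 largest called changes in each direction were those of GLYMA14G10590 (2.38, adjusted p = 0.00827, limma), GLYMA15G21040 (2.38, adjusted p = 1.46e-07, limma), GLYMA18G45895 (-1.93, adjusted p = 5.86e-05, limma) and GLYMA18G15180 (-1.48, adjusted p = 0.000155, limma). GLYMA14G10590 was not called in 2 of the 46 alternatives, and the others in 0. Members were chosen for large ratios within each day, so their shares against all genes are a description. With 3 libraries per time point, no library was tested as an outlier within its group.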

How the results depend on the processing

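The number of members was 56 and 21 at mean limits of 2 and 10 FPKM, 164 and 9 at ratios of 4 and 16, 15 after median-ratio rescaling, and 21 to 41 with a replicate or 1 library left out. With the median of the replicates it was 27, of which 21 were among the 33. No called member changed sign in the alternatives named here.

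For ZT40 minus ZT16, 1 member was higher after rescaling, with a pseudocount of 0.1 and without the 3 libraries that stood apart. Of all genes, 12.5%, 14.1% and 17.8% were higher in these settings. With 1 replicate number or 1 library left out, 1 to 3 members were higher (1 without replicate 2, ZT16 replicate 3 or ZT40 replicate 2) and 6 to 14 lower, and 2256 to 4269 of all genes were higher and 1392 to 4166 lower, against 4098 and 3232 with all libraries; without the 3 libraries together 4898 were higher and 2670 lower. For the step up to the peak, 1 member was larger throughout and 0 to 12 smaller, with 47 to 809 and 73 to 1339 of all genes against 463 and 599; single libraries that moved the counts over 1.5 times were ZT4 replicates 1 and 3, ZT16 replicates 1 and 2, ZT28 replicate 3 and ZT40 replicate 3.

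For the level after minus before the peak, 8490 of all genes were lower after rescaling and 8949 after quantile normalization, against 13462; with 1 replicate number or library left out 9 to 13 members were higher and 10 to 12 lower, and 4786 to 5589 and 11270 to 13894 of all genes. For its change between the days, 1912 and 2540 of all genes were larger after rescaling and quantile normalization, against 4879, and 2652 and 2572 smaller, against 1563; with 1 left out 10 to 22 members were larger and 2 to 3 smaller, and 981 to 5515 and 565 to 2259 of all genes. The cause was not tested, beyond fewer samples where a replicate left.

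With the replicate number as a block, 22 members were larger and 3 smaller on the second day in the flank comparison, against 18% and 5.81% of all genes. At ZT40, 3 members were higher and 12 lower than at ZT16, against 15.1% and 11.7% of all genes. Every member called without the block was called with it. Libraries of the same number correlated over 0.1 in 42 of 198 pairs across time points. Their median r was 0.006, against 0.005 for libraries of different numbers, and no pairing by number was assumed in the main fit. Among the members, replicate 3 was the highest at ZT4 in 28, at ZT28 in 26 and at ZT40 in 20, but at ZT0 in 6 and at ZT24 in 4. Whether the numbers link libraries in these genes was not tested. Depth limits low values: those far under 1 FPKM rest on few reads.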
